A study of Lynx rufus with 52 samples.

Results

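The 200 gene IDs whose level varied least between bobcat blood libraries are described here, out of 21887 IDs counted in whole blood of bobcats (Lynx rufus), a North American wild cat. Blood RNA was sequenced from 26 samples with anticoagulant rodenticides detected and from 26 samples without detection. Detection is the one difference between the groups that the labels give: neither sex, age, dose, compound nor sampling date is stated for any sample, and both groups shared the same extraction and globin depletion with kits made for mouse. Whether each sample is a separate animal is not stated, and p-values therefore refer only to the spread among samples, which may be technical.

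Members were chosen from their own measured values. The 2 most abundant IDs were set aside, and counts were expressed as CPM (counts per 1000000 of the remaining counts). Of all IDs, 4740 reached 10 CPM in each of the 52 libraries. Left out next were IDs whose level followed the share of the 2 most abundant IDs most closely, 95 of them among the 4740, and 6 further IDs, 3 of them among the 4740. This left 4642 eligible IDs, ranked by the standard deviation (SD) of log2(CPM + 1) over the 52 libraries, and the 200 with the smallest SD are the members. None of the excluded IDs would have been among the 200 without the exclusion. The small SD is therefore what the choice fixed, and it is given below as a description with no test.

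Genes with a steady level between individuals are the candidates for reference genes, against which the levels of other genes are expressed. Steady levels in blood are known for many genes of basic cell upkeep, such as those for translation, protein turnover and RNA processing, while genes of immune defence and of red cell formation vary with infection, stress and the make-up of the blood. A level in RNA sequencing is always relative to a scale, either the total count or a factor estimated from many genes, so steadiness is a property of a gene and a scale together. Recovery of fragments in library preparation is also known to depend on their GC content, the share of G and C bases, and that dependence can differ between libraries. The IDs carry the Ensembl prefix of the domestic cat. Neither the deposited files nor the bobcat gene table used here (28854 genes, of which 0 share an ID) pairs them with names, so members are described by ID, level, length and GC content, and neither the cell types of the blood nor gene families could be checked.

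Libraries held 3405189 to 22898827 counts, with a median of 14230362. The 2 most abundant IDs took 0.563% to 56.2% of the counts. Genes expected at a fixed depth of 2000000 counts, a measure of how evenly a library's counts are spread over genes, came to 12957 ± 210 with rodenticide detected and 12727 ± 302 without (mean ± SD over 26 libraries each; two-sided permutation p = 0.00272, Benjamini-Hochberg adjusted over 5 library measures to 0.0075). The authors' normalized and regressed tables differ by 3 independent columns over libraries, and the pattern of these columns sorts the libraries into 24, 17 and 11, called levels A, B and C here. What the levels stand for is not stated. Each level held both rodenticide groups.

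The members ranged widely in abundance within the eligible IDs. Their mean levels had a median of 105 CPM, against 74.8 CPM for the other 4442 eligible IDs. ENSFCAG00000006788 reached 8093 CPM, and every other member lay between 17.8 CPM and the 1350 CPM of ENSFCAG00000009454, which is named here after its value was seen. Together they took 3.85% to 5.05% of the counts outside the 2 most abundant IDs, with a median of 4.46%. That summed share ran from 3.97% over a median of 4.50% to 5.05% with rodenticide detected, and from 3.85% over 4.43% to 5.02% without, so the groups overlapped almost fully. The SD of the members ran from 0.143 to 0.245 on the log2 scale, with a median of 0.225, against 0.409 for the other eligible IDs. From the lowest to the highest of the 52 libraries, members changed by 1.54-fold to 2.98-fold with a median of 2.07-fold. All 200 stayed under 3-fold, and 66 stayed under 2-fold. The other eligible IDs had a median range of 3.86-fold.

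**Figure D1:**
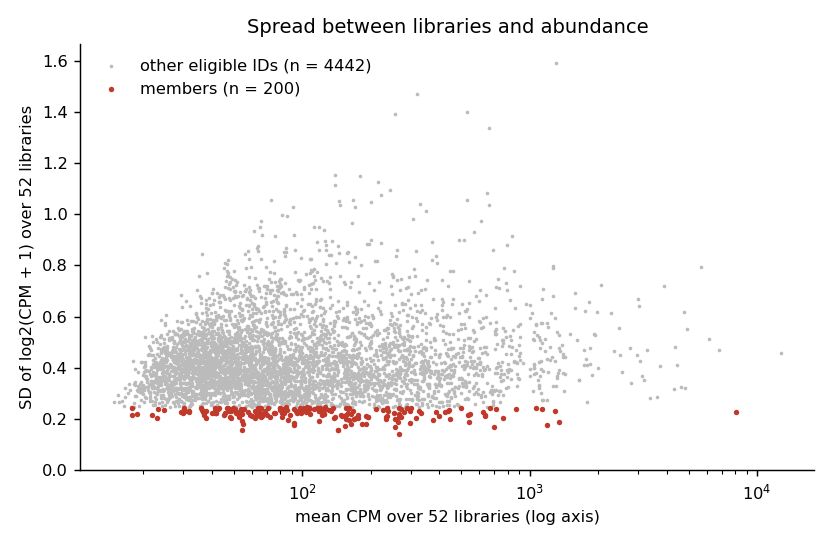
Each point is 1 eligible ID, with its mean CPM over 52 libraries on a log x axis and the SD of log2(CPM + 1) over the same libraries on the y axis. The 200 members (red) lie along the lower edge, from 0.143 to 0.245, between 17.8 and 1350 CPM, with ENSFCAG00000006788 alone at 8093 CPM and ENSFCAG00000009454 next at 1350 CPM.

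Counting error made up little of the members' spread. The variance expected from counting alone was a median of 4.25% of a member's variance (0.0526% to 25.4%), against 1.79% for the other eligible IDs. The threshold between members and other IDs was not a natural gap: the last 5 members had an SD of 0.2444 to 0.2448 and the next 5 IDs an SD of 0.2449 to 0.2453. ENSFCAG00000030054, the last member, and ENSFCAG00000005588, the first ID outside, both had an SD of 0.245.

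The steadiest member was ENSFCAG00000010997, with an SD of 0.143. It was measured at 189 CPM at the lowest, 272.5 CPM at the median and 318 CPM at the highest in rodenticide-negative libraries. In rodenticide-positive libraries the same 3 values were 220, 273.7 and 307 CPM. The medians of the groups nearly coincided, and all rodenticide-positive libraries fell inside the rodenticide-negative range. The mean length the authors give for this ID is 320 bases, and its GC content is 47.1%.

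ENSFCAG00000006788 was the most abundant member and ranked second in abundance of all eligible IDs. Its lowest, median and highest levels were 6206, 7949 and 11100 CPM in rodenticide-negative libraries, and 5565, 8077 and 10630 CPM in rodenticide-positive libraries. The groups overlapped over nearly their whole range. With at least 21391 counts in each library, counting made up 0.0526% of its variance, the smallest part of any member. The least abundant member, ENSFCAG00000027110, stood at the opposite end, with 12.4, 17.3 and 24.2 CPM in rodenticide-negative and 12.2, 17.4 and 23.2 CPM in rodenticide-positive libraries. It rested on as few as 39 counts in a library, and counting made up 25.4% of its variance.

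The last member in rank, ENSFCAG00000030054, ran from 63.4 CPM over a median of 99.5 to 145 CPM in rodenticide-negative libraries. In rodenticide-positive libraries it ran from 80.9 over 107 to 167 CPM. Its lowest value came from rodenticide-negative replicate 9, the library that gave 56.2% of its counts to the 2 most abundant IDs. ENSFCAG00000003383 had the pattern most like that of the other members, with a median Pearson r of 0.418 with them over the 52 libraries. It was measured at 149.2 CPM at the lowest and 256.9 CPM at the highest in rodenticide-negative libraries, with a mean of 221.4 ± 28.3 (SD, n = 26), and at 187.5 to 306 CPM, with a mean of 247 ± 30 (SD, n = 26), in rodenticide-positive ones, which overlapped.

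**Figure D2:**
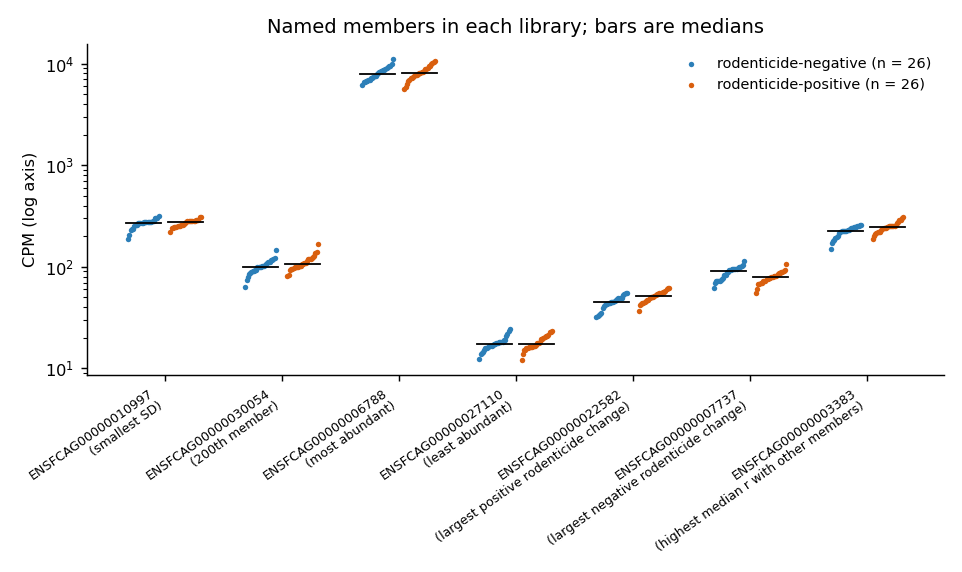
CPM (log y axis) of the 7 members named by rule in each library, as points sorted by value within each rodenticide group of 26, with black bars at the group medians. The groups overlap in every one of the 7, from 12.2 CPM in the least abundant to 11100 CPM in the most abundant member.

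Members moved together only weakly. Over the 19900 pairs of members the median Pearson r across libraries was 0.207, and 90% of pairs lay between -0.251 and 0.598. Pairs reached from -0.793 to 0.857, and 23.1% were below 0. Among the other eligible IDs the median was 0.102 and 39.8% were below 0. These correlations share libraries and depth and are descriptions. The first principal component held 25.9% of the members' variance and the next 12.5%.

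Whether the steadiness carries over to libraries that did not choose the genes was read by applying the same rule within 1 rodenticide group and measuring the SD in the other. The 200 IDs steadiest in rodenticide-negative libraries had a median SD of 0.224 there and 0.232 in rodenticide-positive libraries, where the other 4559 IDs had 0.386. Of these 200, 198 lay under that median of the other IDs. In the opposite direction, the 200 IDs steadiest in rodenticide-positive libraries rose from a median SD of 0.2 to 0.256 in rodenticide-negative libraries, against 0.429 for the other IDs, and 197 lay under it. The 2 lists shared 85 of their 200 IDs, and 126 of the second list are members. Low spread as such thus recurred in the libraries not used, while the exact list did not.

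The members' spread was also compared between the rodenticide groups. Their median SD was 0.229 in rodenticide-negative and 0.209 in rodenticide-positive libraries, and it was lower in the latter for 133 of the 200. Among the other eligible IDs the medians were 0.415 and 0.384, with 64.2% lower in rodenticide-positive libraries. Limma on absolute deviations from the group median passed 0 of the members at an adjusted p of 0.05 (Benjamini-Hochberg over 9166 IDs, of which 0% passed) and 2 at an unadjusted p under 0.05, where 3.96% of all IDs stood. With simulated normal values this test recovered 28.5% of the 200 IDs, out of 5000, whose SD was doubled in 1 group. The simulation gave all unchanged IDs the same SD and no shared pattern between IDs, unlike the real data. Its recovery is therefore only a rough guide, and the 0 does not exclude differences in spread.

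GC content, which the rule did not use directly, was less spread among members than among other eligible IDs. Members had a median GC content of 50.3%, nearly that of the other IDs (50.2%), but they kept close to it. The middle 50% of members lay between 46.8% and 54.1% GC, against 43.3% and 57.5% for the other IDs. When the 4642 eligible IDs were sorted into 10 equal bins by GC, the 5 bins from 44.7% to 58.7% GC held 168 of the 200 members (84%) and 48.4% of the other IDs. The lowest bin, under 39.3% GC, held 2 members and the highest, above 62%, held 1. Length differed less: the authors' mean length per ID had a median of 269.1 bases in members and 221 bases in other IDs, with an overlapping middle 50% (153 to 455 and 145 to 391 bases).

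The libraries differed in how levels followed GC. Over the 4442 eligible IDs that are not members, the slope of a library's deviation from the gene means on GC ran from -0.52 to 0.39 log2 units per 10 percentage points of GC. The slope, a measure chosen after these values had been seen, was 0.00614 ± 0.186 with rodenticide detected and -0.00614 ± 0.227 without (mean ± SD over 26 libraries each; two-sided permutation p = 0.842, adjusted to the same value). Their ranges in levels A, B and C overlapped. The median SD of the eligible IDs was lowest in the sixth GC bin, at 0.37, and rose to 0.412 in the lowest and 0.476 in the highest bin.

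**Figure D3:**
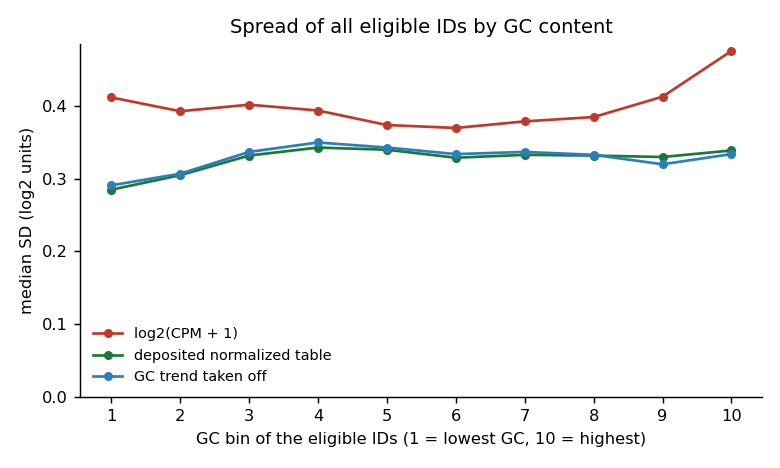
Median SD in log2 units (y axis, from 0) of all eligible IDs in 10 equal GC bins (x axis), measured on log2(CPM + 1), in the authors' normalized table and after each library's GC trend was taken off. On CPM the spread dips to 0.37 in the middle and reaches 0.476 at the highest GC, while in the normalized table it runs between 0.285 and 0.343 with the minimum at the lowest GC.

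The members themselves still followed the slope according to their own GC. Fitted with the slope as a numeric term, 32 members were higher and 45 were lower in libraries of steeper positive slope at an adjusted p of 0.05 (edgeR's quasi-likelihood test, Benjamini-Hochberg over 12024 genes). Over all genes tested 27% were called higher and 28.4% lower, a background that includes the genes the slope was measured on. The 32 members that rose had a median GC content of 56.3%, and 29 of them lay above the members' median. The 45 that fell had a median of 45.5%, with 1 above. The remaining 123 had a median of 51.4%. Limma on the normalized table called 22 members higher and 14 lower with the slope, against 3.77% and 3.45% of all genes. Pairs of members from the 67 with the lowest GC had a median r of 0.288, pairs from the 67 with the highest GC 0.321, and pairs across these parts 0.116.

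The authors' normalized table, whose method is not stated, ranked the same genes differently. All 200 members are in it, with a median SD of 0.218 log2 units against 0.333 for the other eligible IDs, and 198 lie under that median. Yet only 41 of the 200 are among the 200 IDs of smallest SD in that table, where the members' median rank was 607 of 4642 and the lowest-placed ranked 3059. The 200 IDs steadiest in the normalized table had a median GC content of 44.4%. Of them, 80 lay in the lowest 2 GC bins, which hold 10 members. When each library's GC trend was taken off the log2 CPM values with a cubic curve, a step chosen after these values had been seen, 61 members remained among the 200 steadiest. That list shared 129 IDs with the list of the normalized table and had a median GC content of 45.3%.

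**Figure D4:**
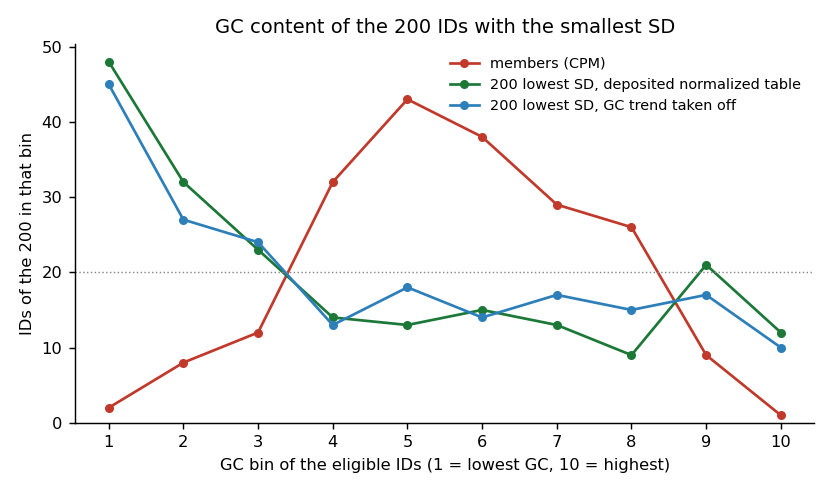
Number of IDs (y axis) in each of 10 equal GC bins of the eligible IDs (x axis) for 3 choices of the 200 steadiest IDs; the dotted line marks 20, an even spread over the bins. Members chosen on CPM peak at 43 in the fifth bin and fall to 2 and 1 at the ends, while the list from the authors' normalized table has 48 in the lowest bin.

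Some members ranked high on CPM, in both tables of the authors and with the GC trend taken off. ENSFCAG00000010997 ranked 1 on CPM, 19 in the normalized table, 11 in the regressed table and 13 with the GC trend taken off. Ranks on other scales are not given here. ENSFCAG00000003383 ranked 29 on CPM, 45 in the normalized table, 104 in the regressed table and 2 with the GC trend taken off. The most abundant member, ENSFCAG00000006788, ranked 111 on CPM but 1074 in the normalized table. Of the members, 36 were among the 200 steadiest on CPM and in both tables of the authors.

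The scale also changed the list. TMM factors, which are estimated from many genes, were used in place of the total outside the 2 most abundant IDs. With them, 46 members stayed among the 200 steadiest. The median SD of all 200 members rose to 0.258 while that of the other eligible IDs fell to 0.393. The TMM-scaled library size stood above or below the members' own scale by -0.55 to 0.36 log2 units in single libraries. Relative to the mean of all libraries it was 0.08 ± 0.17 with rodenticide detected and -0.08 ± 0.21 without (mean ± SD over 26 libraries each; two-sided permutation p = 0.003, adjusted to 0.0075).

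Rodenticide detection was tested on the whole count table with TMM scaling. The rule bounds this difference on the members' own scale, because members were chosen there for a small SD over both groups together. With TMM it does not hold the estimates near 0. The TMM-scaled size relative to that scale was 0.08 with rodenticide detected and -0.08 without, which lowers all estimates. The direction that members share with TMM is therefore bound to the choice and is a description. None of the 200 members passed an adjusted p of 0.05 (edgeR, Benjamini-Hochberg over 12024 genes, 26 against 26 libraries), where 0.0832% of all genes did (0.025% lower and 0.0582% higher). At an unadjusted p under 0.05 stood 66 members (33%), all with lower estimates in rodenticide-positive blood. In either direction 21.9% of all genes and 21.7% of the other eligible IDs stood there, with 16.1% of the other eligible IDs lower. DESeq2 called 8 members and limma voom with quality weights 34, all lower, where 2.62% of the 11561 genes with an adjusted p in DESeq2 (0.804% lower, 1.82% higher) and 13.6% in voom (4.4% lower, 9.24% higher) were called. In edgeR, 195 of the 200 estimates were below 0, with a median of -0.12 on the log2 scale, against -0.01 for all genes tested and -0.09 for the other eligible IDs.

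That direction turned with the scale. With library sizes from the counts outside the 2 most abundant IDs, the scale on which the members were chosen, 142 of 200 estimates were above 0 and their median was 0.04. On this scale the median of all genes tested moved by 0.157, to 0.145, and that of the other eligible IDs was 0.072. The members stood 0.103 below the median of all genes, against 0.112 below it with TMM. A change of scale moves all genes by nearly the same amount, so these 2 distances are not separate results. Neither scale gave a member past an adjusted p of 0.05 in edgeR, where 0.0832% of all genes passed with TMM and 0% on the second scale. On the second scale 14 members stood at an unadjusted p under 0.05, against 26.8% of all genes. The normalized table of the authors gave 98 estimates below 0 and 102 above, with a median of 0.002, against 0.003 for all genes tested. With the GC slope as a covariate in edgeR, 2 members were called, both lower, against 1.93% of all genes (0.349% lower, 1.58% higher). Without the 3 libraries under 5000000 counts edgeR called 1 member, lower, against 0.438% of all genes (0.198% lower, 0.24% higher), and 59 stood at an unadjusted p under 0.05, against 21.7%. Fewer cells of a type and less RNA per cell cannot be told apart in bulk blood.

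**Figure D5:**
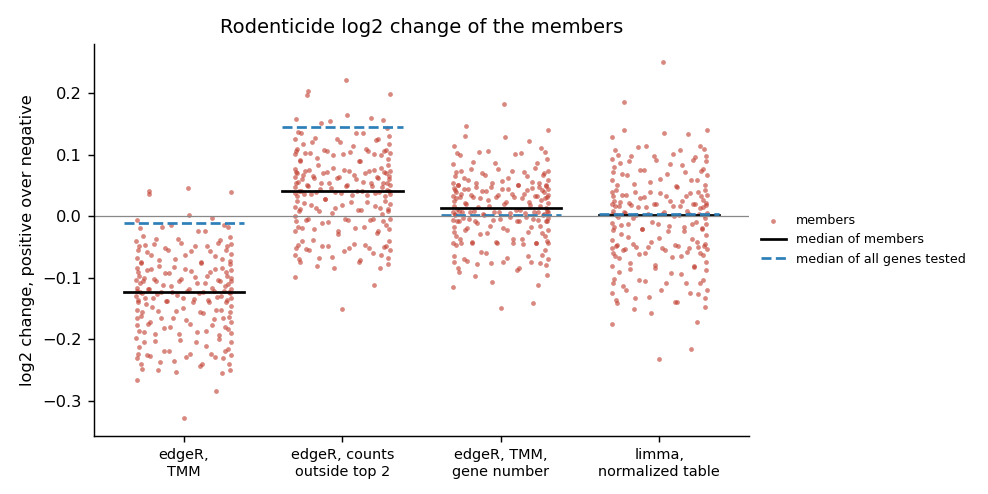
Log2 change of the 200 members in rodenticide-positive over rodenticide-negative libraries (y axis) in 4 fits (x axis), with the median of the members as a black line and that of all genes tested as a dashed blue line. The members' median is -0.12 with TMM, 0.04 with counts outside the 2 most abundant IDs, 0.01 with TMM and the gene number as covariate and 0.002 in the authors' normalized table.

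ENSFCAG00000007737 had the largest negative estimate of the members. Its lowest, median and highest levels were 61.9, 90.7 and 115 CPM in rodenticide-negative libraries and 55.8, 78.5 and 107 CPM in rodenticide-positive ones. The groups overlapped over most of their range. The log2 change was -0.33 ± 0.087 with TMM (SE; edgeR adjusted p = 0.0757) and -0.15 ± 0.067 on the members' own scale (edgeR adjusted p = 0.142). ENSFCAG00000022582 had the largest positive estimate, at 31.8, 44.6 and 55.2 CPM in rodenticide-negative and 36.7, 51.4 and 62.3 CPM in rodenticide-positive libraries, which overlapped. Its change was 0.05 ± 0.053 with TMM (SE; edgeR adjusted p = 0.609) and 0.20 ± 0.067 on the members' own scale (edgeR adjusted p = 0.0688). The steadiest member on CPM, ENSFCAG00000010997, had a change of -0.16 ± 0.057 with TMM (SE; edgeR adjusted p = 0.118). On the members' own scale it was 0.008 ± 0.053 (edgeR adjusted p = 0.943).

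Limma on the normalized table of the authors passed 2 members at an adjusted p of 0.05, 1 in each direction, over 12332 genes, of which 1.23% passed (0.227% lower and 1.01% higher). Both are named after their values were seen. ENSFCAG00000009696 rose by 0.25 ± 0.066 log2 units (SE; limma adjusted p = 0.0481), from 31.96 ± 0.213 in rodenticide-negative to 32.21 ± 0.24 in rodenticide-positive libraries (SD, n = 26 each). ENSFCAG00000026335 fell by 0.22 on the same scale (SE 0.0573; limma adjusted p = 0.0481), from 29.17 ± 0.184 to 28.96 ± 0.203. Both also passed in the regressed table (limma adjusted p = 0.027 and 0.0296), where 4.91% of genes did (0.965% lower and 3.94% higher). On counts from all libraries the result depended on the scale. ENSFCAG00000009696 had a change of 0.04 with TMM (edgeR adjusted p = 0.746) and 0.20 on the members' own scale (edgeR adjusted p = 0.0722). ENSFCAG00000026335 had a change of -0.21 with TMM (edgeR adjusted p = 0.0866) and -0.05 on the members' own scale (edgeR adjusted p = 0.639). It passed with TMM when the GC slope was a covariate (edgeR adjusted p = 0.0404) and within level A (edgeR adjusted p = 0.0324).

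Within level A, 65 members were lower in rodenticide-positive libraries at an adjusted p of 0.05 and 0 were higher (edgeR with TMM, 13 against 11 libraries), where 24.7% of all genes were called, 11.4% lower and 13.4% higher, and 20.4% of the other eligible IDs were called lower. The median change was -0.23, against -0.16 for the other eligible IDs. On the members' own scale 12 were called higher and 0 lower in level A, against 31.3% and 2.44% of all genes, and limma on the normalized table called 5 higher and 5 lower, against 12.9% and 7.76%. Adding gene number to the level A model left no member past the threshold in edgeR, where 0% of all genes passed. At an unadjusted p under 0.05 stood 1 member, against 8.87% of all genes. Levels B and C gave no member past the threshold in edgeR, where 0% of all genes passed in either. No member stood at an unadjusted p under 0.05 there, against 2.22% and 1.21% of all genes. Level B held 9 rodenticide-positive and 8 rodenticide-negative libraries, and level C 4 and 7. Median counts were 6655430 in level B, against 15956400 in level A and 15356100 in level C. Fewer or shallower libraries than in level A thus limit what these 2 levels can show. A test of whether the rodenticide change depends on level passed none of the members in edgeR (0.00832% of all genes past an adjusted p of 0.05), and 8 stood at an unadjusted p under 0.05, against 7.95% of all genes, so the levels were not shown to differ.

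Of the 4 library measures fitted on the TMM scale, gene number at the fixed depth called the most members. With it as a numeric term, 192 of the 200 members were called lower where gene number was higher and 0 were called higher (edgeR adjusted p under the 0.05 threshold), against 26.2% and 29.3% of all genes and 45.7% lower among the other eligible IDs. The change per SD of gene number had a median of -0.16 in members and -0.10 in the other eligible IDs. On the members' own scale the direction of the calls turned: 59 were called higher and 14 lower, against 59.8% and 6.89% of all genes. The members' median there was 0.03, against 0.20 for all genes tested. With TMM the members' median was -0.16, against 0.009 for all genes tested. Members thus stood below the median of all genes on both scales. A change of scale moves all genes by nearly the same amount, so these distances are not separate results. Limma on the normalized table called 28 higher and 60 lower, against 22.7% and 23.1%. Gene number differed between the rodenticide groups as given above. With it as a covariate the median rodenticide change of the members was 0.01 with TMM. None passed the threshold in edgeR, where 0% of all genes did. At an unadjusted p under 0.05 stood 5 members, against 3.06% of all genes.

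Other library measures touched fewer members. With the share of the 2 most abundant IDs as a term, 21 members were called higher and 0 lower with TMM (edgeR), against 6.15% and 1.75% of all genes, whereas on the members' own scale 3 were higher and 57 lower, against 3.18% and 17.4%. The rule had removed the IDs that followed this share most closely. With log2 library size as a term, 15 members were called lower and 0 higher with TMM (edgeR), against 4.13% and 4.57% of all genes, and on the members' own scale 2 were lower and 8 higher, against 1.2% and 8.88%. Members also kept low dispersion in the count model, with a median biological coefficient of variation of 0.193 against 0.274 for the other eligible IDs, a value from the same libraries that chose them.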

How the data were processed

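Whole-blood RNA-seq of 52 bobcat samples (26 per rodenticide group) was analysed from 3 deposited tables. The authors deposited raw counts per gene ID, with each ID's GC fraction and mean length, and 2 tables of 12332 IDs on a log2 scale, normalized and regressed. Tools listed, per the submitters' processing notes, are TopHat2 2.1.0, Trim Galore 0.3.1, HTSeq, limma and edgeR. For build, annotation, strand use and normalization the entry is: not given in the sources used here. Overlapping or near-identical genes cannot be told apart in these counts.

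The members and lists were chosen with earlier results of these data known. IDs were to be named by rule: the smallest SD, ranks 200 and 201, the most and least abundant member, the largest rodenticide change each way, the highest median r, and at most 2 called IDs each way. Lists of reference genes and cell markers need names and were not run.

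Tests used edgeR 4.0.16 (TMM, filterByExpr, robust dispersions, glmQLFit and glmQLFTest), limma 3.58.1 (trend, robust) and DESeq2 1.42.0 in R 4.3.3, with Benjamini-Hochberg adjustment at 0.05 over all genes tested. Numeric library measures were scaled to 1 SD. Standard errors in edgeR came from the F statistic. Python 3.11.15, numpy 2.4.6, scipy 1.17.1 and pandas 2.3.3 gave the rest, with 100000 resamples in two-sided permutation tests. On simulated data the edgeR test recovered 93% of 2-fold and 60.3% of 1.5-fold changes among 11924 genes. The largest rodenticide estimate of a member was 0.33 log2 units, smaller than both of these changes. A smaller change was simulated too, and its recovery is not reported here. The 2 recoveries given therefore do not describe changes as small as the members'. Replicate numbers follow sample order and pair nothing.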

Additional observations from a re-analysis of the deposited data

How the results depend on the processing

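The list of 200 changed with the scale, the table, the filter and the libraries. Of the 200 members, 46 were kept with TMM factors, 41 with upper-quartile factors and 114 with all counts as library size. The normalized table kept 41, the same number after centring each library on its median, and 43 were kept in the regressed table. Among alternatives chosen after seeing the data, as were the centring, the GC slope and the level A combinations, taking off each library's GC trend kept 61, and taking off GC and length trends 57. The median absolute deviation kept 118 and a minimum of 50 CPM kept 124. Rodenticide-positive libraries alone kept 126, and levels A, B and C alone 117, 99 and 92. Leaving out 1 library kept 173 (without rodenticide-negative replicate 10) to 199. The median SD of the members was 0.258 with TMM, 0.262 with upper-quartile factors, 0.25 in level B, 0.1725 in level C, 0.193 in the regressed table and 0.205 with GC trends taken off. Chosen in the normalized table, 200 IDs had a median GC of 44.4%.

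For rodenticide detection, where edgeR with TMM called 0 members, DESeq2 called 8, limma voom 34, level A 65, level A on the members' own scale 12 and 10 in the normalized table of level A. The normalized and the regressed table called 2 each. The GC slope as covariate gave 2 (ENSFCAG00000007737 and ENSFCAG00000026335), against 1.93% of all genes, and leaving out libraries under 5000000 counts gave 1 (ENSFCAG00000007737), against 0.438%. Leaving out 1 library gave 0 to 12 members, all lower: 12 without rodenticide-negative replicate 20 (5.37% of all genes called, 1.42% lower), 4 without replicate 17 (2.03%, 0.54% lower) and 1 without replicate 26 (0.506%, 0.0912% lower). Without rodenticide-positive replicates 2, 3 and 22 it gave 1, 2 and 1 (0.654%, 1.77% and 1.08% of all genes; 0.199%, 0.406% and 0.274% lower), while the other 46 omissions gave 0. The number of members called for gene number was 73 on their own scale and 88 in the normalized table, for the share of the 2 most abundant IDs 60 on their own scale, and for the GC slope 36 in the normalized table (7.23% of all genes). Apart from the change of scale, which moves all genes by nearly the same amount, the causes of these shifts were not tested. No paired analysis was possible because the labels give no number that groups share. Depth limited the least abundant members, where counting made up as much as 25.4% of the variance.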
